A study of Drosophila melanogaster with 28 samples.

Results

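Aminoacyl-tRNA synthetases are the enzymes that join each amino acid to its tRNA, the step that supplies every ribosome with charged tRNA. Animal cells translate in the cytosol and, separately, inside mitochondria, and the nuclear genome encodes enzymes for both, in most cases from separate genes whose mitochondrial versions carry the suffix -m in the fly. The enzymes fall into class I and class II, which have unrelated catalytic folds, and in animals a set of the cytosolic enzymes is held together with the AIMP scaffold proteins in a multi-synthetase complex. A member was any gene whose name consisted of 1 or 2 three-letter amino acid names followed by RS or RS-m. The rule found 33 genes of the 13884 present in both the RNA-seq and the Ribo-seq table, 18 without the suffix, called cytosolic below, and 15 with it, called mitochondrial, and 0 genes with the older prefix Aats-. No expression value was used to choose them. Phenylalanine has only its mitochondrial enzyme among the members because the cytosolic enzyme is built from subunits named alpha-PheRS and beta-PheRS, which the rule does not reach and which are described with the partner genes.

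The flies were bam mutant females whose germline stem cells (GSCs) cannot differentiate, with a heat-shock inducible bam transgene that drives a synchronous wave of differentiation once induced. All groups, no HS included, were w mutant, carried the nosP-GAL4-NGT40 driver on one homologue and the bam86 allele on both homologues of another chromosome, and on one bam86 chromosome the heat-shock transgene P{w[+mC]=hs-bam.O}11d. Whole adult ovaries were taken without heat shock (no HS) or at 0.5, 5, 9, 18, 28 and 38 h after heat shock (AHS), which was 1 h at 37C and 2 h at 34C with flies otherwise returned to 25C. RNA-seq of rRNA-depleted total RNA and Ribo-seq of ribosome-protected footprints had 2 replicates at each of the 7 time points, 28 libraries in all. The ovary still holds its somatic cells and muscle sheath, and the heat-shock promoter is not restricted to the germline. Fewer cells of a type and less RNA per cell cannot be told apart in such samples, and from 0.5 h onwards the heat shock itself, the time since it and the stage of differentiation move together and cannot be told apart.

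Each deposited value is an FPKM (read fragments scaled to the length of the transcript and to the size of the library) estimated by the authors over both replicates together, with lower and upper 95% bounds. There is therefore no value per replicate, no replicate SD and no test across replicates, and the bounds are the only error. A gene was called higher or lower where 2 time points were more than 1.6-fold apart in FPKM and at least 1 of them exceeded 10 FPKM, and genes under 10 FPKM in both were not tested. SE below is the standard error of a log2 change from the bounds, and bounds apart means that the bounds of the compared time points did not overlap. Median changes of a compartment are over all its members, tested or not, whereas those of other genes are over tested genes only. The bounds lay a median of 19.1 to 19.2% either side of the value for cytosolic members in RNA-seq and 21.7 to 22.0% in Ribo-seq, and 23.0 to 25.1% and 31.2 to 34.3% for mitochondrial members. All 7 genes of a heat-shock list that includes bam were called higher at 0.5 h AHS in both assays. The 6 germline markers were above 0 at all time points, with summed RNA-seq FPKM between 440 and 581, the 7 muscle markers summed to 598 to 958 and the 7 follicle and escort cell markers to 354 to 448. No synthetase differed more than 3-fold between 0.5 h AHS and no HS in RNA-seq. Of all genes, 75 above 10 FPKM did, where 6400 were tested, so a count of 0 among the members says little.

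The longest annotated coding sequences (Ensembl annotation of BDGP6, the dm6 sequence) had a median of 2232 bases for cytosolic and 1746 bases for mitochondrial members. Cytosolic members with more than 1 annotated start codon numbered 5 of 18 (27.8%), mitochondrial members 1 of 15, and the share among 5763 other expressed genes was 16.8%. Of the 5 cytosolic genes with no partner of the same amino acid carrying the suffix -m, namely GlnRS, GlyRS, HisRS, LysRS and ThrRS, the last 4 each have a longer and a shorter start. Alternative starts are a known way for 1 gene to make both a mitochondrial and a cytosolic enzyme. The first 30 coding bases from each start, read from the RefSeq genome sequence, are shown because an FPKM is 1 value for the gene and adds the products of both starts. The start codon is in capitals.
GlyRS, 765 codons, chr3L:15095262-15095264, plus strand: ATGtcattgcagttgttaaaagcgctaccc
GlyRS, 679 codons, chr3L:15095520-15095522, plus strand: ATGtcgaatcccgagattgaggctcaactt
HisRS, 564 codons, chrX:18515590-18515592, plus strand: ATGagtgatacgcgtgagcagattctggag
HisRS, 554 codons, chrX:18517551-18517553, plus strand: ATGttgcgttcaattggccgccagtggcgc
LysRS, 607 codons, chrX:9608550-9608552, minus strand: ATGttcgcccgctgcgcccttagaaccgtg
LysRS, 574 codons, chrX:9608748-9608750, minus strand: ATGgccgctgcaagtggagaactgtccaag
ThrRS, 747 codons, chr2L:12103895-12103897, plus strand: ATGttgaagttggcgccgcagggcggcaga
ThrRS, 690 codons, chr2L:12104501-12104503, plus strand: ATGaagaaggagaaaaaggagaagccatcc
The coding sequences of the pair of starts differed in length by 86 codons in GlyRS, 10 in HisRS, 33 in LysRS and 57 in ThrRS. GlnRS has 1 annotated start, and mitochondria make their glutaminyl-tRNA by the GatA, GatB and GatC amidotransferase instead. The other members with more than 1 start were GluProRS and AspRS-m.

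In ovaries of undifferentiated GSC-like cells (no HS), cytosolic synthetase mRNAs were several times more abundant than mitochondrial ones. The median was 57.6 FPKM over the 18 cytosolic members, against 12.1 FPKM over the 15 mitochondrial members, a 4.75-fold ratio, and the summed FPKM was 1118 against 237. All other genes above 10 FPKM had a median of 29.0. The groups overlapped little, since 1 mitochondrial mRNA lay above the lowest cytosolic one. These levels are FPKM, which are per length, and the comparison is between genes, which are not replicates. The 33 genes are spread over the large chromosome arms, 3 on X, 6 on 2L, 8 on 2R, 10 on 3L and 6 on 3R.

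IleRS, the class I enzyme for isoleucine, had the highest cytosolic RNA level at no HS, and its RNA-seq FPKM from no HS to 38 h AHS was 101, 83.6, 100.2, 105, 102, 101 and 93.8. ThrRS, the class II threonine enzyme, followed with 99.4, 81.3, 89.6, 93.9, 93.1, 95.6 and 97.6 FPKM. Both were lowest at 0.5 h AHS, and all values stayed within their bounds at no HS. At the low end TrpRS, which charges tryptophan tRNA, had 31.9, 28.8, 26.6, 29.5, 28.7, 31.5 and 32.3 FPKM, and GlnRS, for glutamine, had 32.8, 26.3, 34.3, 38.1, 34.0, 33.9 and 35.3 FPKM. The bounds of IleRS at no HS (81.9 to 121 FPKM) and of TrpRS (26.0 to 37.8 FPKM) lay far apart, whereas IleRS, ThrRS, LysRS (95.3 FPKM) and AspRS (94.2 FPKM) were not separated from each other by their bounds. Between these ends, at no HS, stood AlaRS (78.2 FPKM), GluProRS (68.3), HisRS (65.2), ArgRS (61.1), GlyRS (58.6), SerRS (56.6), TyrRS (51.9), CysRS (50.6), AsnRS (48.4), LeuRS (45.9), ValRS (43.7) and MetRS (35.0). The class II cytosolic enzymes had a median of 71.7 FPKM (n = 8) and the class I enzymes 45.9 FPKM (n = 9), leaving aside GluProRS, which holds an enzyme of each class in 1 polypeptide. The 8 members of the multi-synthetase complex had a median of 64.7 FPKM and the 10 others 54.3 FPKM, over ranges that overlapped.

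Among the mitochondrial enzymes AspRS-m, for aspartate, stood highest with 45.1, 47.4, 52.5, 58.3, 50.5, 48.2 and 47.4 RNA-seq FPKM from no HS to 38 h AHS, followed by TrpRS-m and PheRS-m (26.1 FPKM at no HS). AspRS-m was above 4 cytosolic mRNAs at no HS. The lowest were GluRS-m, with 4.43, 5.11, 4.65, 5.73, 5.56, 4.91 and 4.81 FPKM and bounds that reached 0 at no HS, and ProRS-m, with 6.72, 5.68, 6.60, 7.57, 7.86, 7.46 and 6.99 FPKM. ValRS-m (6.94 FPKM) and MetRS-m (9.71 FPKM) were also below 10 FPKM at no HS. The remaining members lay between 10.1 and 21.3 FPKM there, from AsnRS-m (10.1), SerRS-m (11.4), ArgRS-m (11.5), CysRS-m (12.1), LeuRS-m (12.5), TyrRS-m (14.0) and IleRS-m (15.6) up to AlaRS-m (21.3). Most mitochondrial enzymes thus had an mRNA near the level at which genes enter the comparisons at all.

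**Figure D1:**
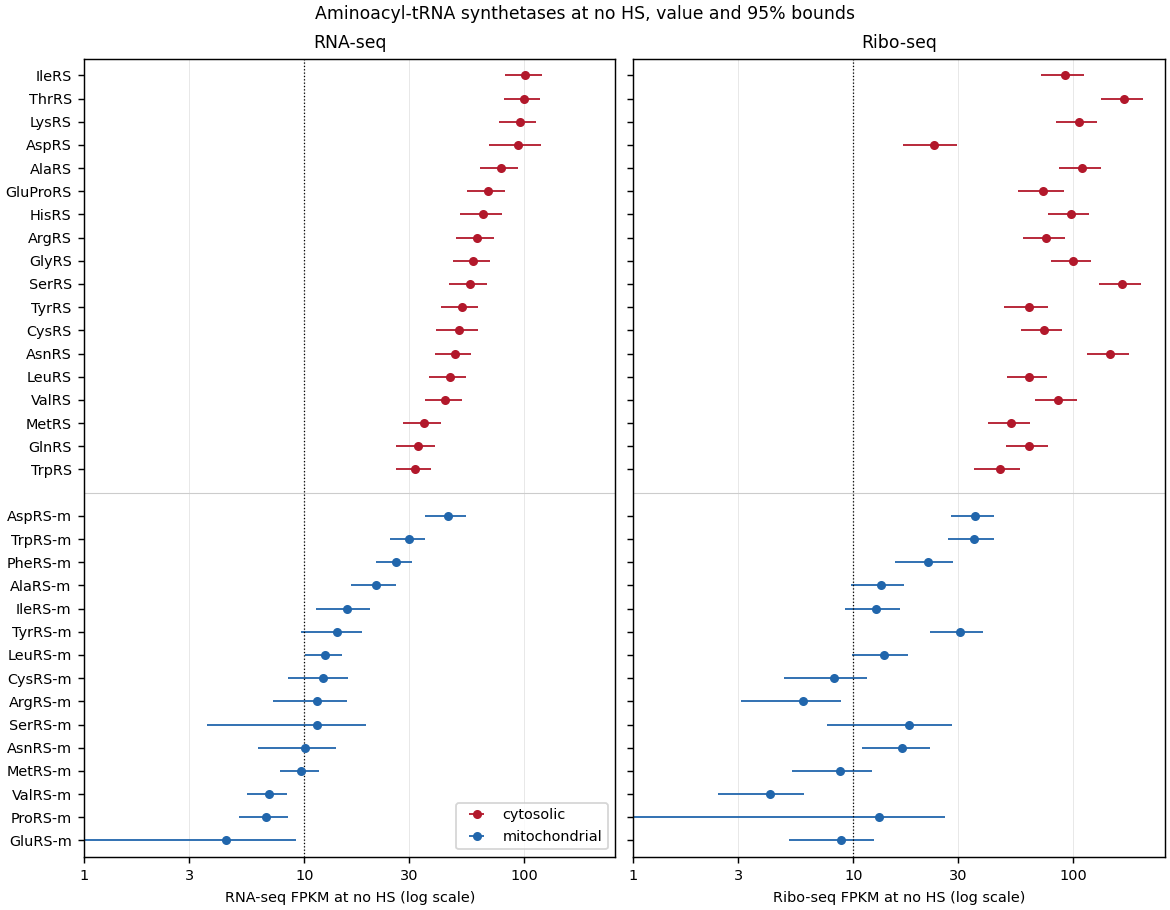
RNA-seq FPKM (left) and Ribo-seq FPKM (right) of each synthetase at no HS on a log axis, with 95% bounds as bars, cytosolic members above and mitochondrial members below. Lower bounds under 1 FPKM are drawn at 1, and the dotted line marks 10 FPKM. Cytosolic members had a median of 57.6 FPKM in RNA-seq, against 12.1 FPKM for mitochondrial members, and AspRS is the single cytosolic gene that falls among the mitochondrial ones in Ribo-seq.

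Ribosome footprints differed more between the compartments at no HS, where the median Ribo-seq FPKM was 80.4 for cytosolic members, against 13.4 for mitochondrial members, a 6.01-fold ratio, with 38.9 FPKM for other genes above 10 FPKM. Over the 7 time points the ratio of the medians ran between 4.73 and 6.37 in Ribo-seq and between 4.43 and 4.92 in RNA-seq, and at 18 h AHS it was the smaller one in Ribo-seq, 4.73 against 4.80. In Ribo-seq at no HS 3 mitochondrial members lay above AspRS, the lowest cytosolic member, against 1 above the lowest cytosolic mRNA in RNA-seq. Only 1 cytosolic member, AspRS, lay below the highest mitochondrial one, against 4 in RNA-seq. ThrRS had the most footprints at no HS, with 169.8, 139, 153, 172, 157, 147 and 154 Ribo-seq FPKM from no HS to 38 h AHS, and SerRS, the serine enzyme, had 167, 138, 139.9, 159, 192, 173 and 165 FPKM. SerRS was above ThrRS from 18 h AHS onwards. AsnRS, for asparagine, followed at no HS with 147, 113, 149, 139, 159.6, 152 and 170.2 FPKM, the highest cytosolic value at 38 h AHS, although its mRNA was only in the lower part of the cytosolic range. AspRS had by far the fewest footprints of a cytosolic member, with 23.3, 30.5, 18.7, 17.3, 20.4, 21.5 and 19.2 FPKM, and TrpRS was next with 46.4, 33.1, 41.3, 41.3, 41.2, 41.9 and 45.7 FPKM. The upper bound of AspRS at no HS (29.7 FPKM) lay below the lower bound of TrpRS (35.4 FPKM).

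Mitochondrial footprints were highest for AspRS-m at each time point, with 35.7, 39.0, 42.6, 52.0, 46.1, 41.6 and 36.4 Ribo-seq FPKM, and TrpRS-m was next at no HS. The lowest at no HS were ValRS-m, for valine, with 4.20, 6.96, 4.97, 7.45, 3.73, 4.65 and 3.25 FPKM, and ArgRS-m, for arginine. ValRS-m was below 10 FPKM in both assays at all 7 time points and so was not tested for calls. TyrRS-m, for tyrosine, had more footprints than its mRNA level would place it, 30.5 FPKM at no HS, behind only AspRS-m and TrpRS-m, and from 0.5 h AHS onwards it lay above TrpRS-m.

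The amino acids with both a cytosolic and a mitochondrial gene number 14, glutamate and proline sharing the cytosolic GluProRS. The cytosolic mRNA was the more abundant for 14 of the 14 at no HS, and the 95% interval of the ratio lay above 1 for 13. The exception was tryptophan, where TrpRS was 1.07 times TrpRS-m (0.827 to 1.37), and the tryptophan pair had the ratio nearest to 1 at all 7 time points in RNA-seq. The largest RNA ratio was for glutamate, where GluProRS was 15.4 times GluRS-m (5.29 to 45.0), and the proline ratio over ProRS-m was 10.2. RNA ratios for the other pairs were 6.51 for isoleucine, 6.30 for valine, 5.33 for arginine, 4.98 for serine, 4.80 for asparagine, 4.18 for cysteine, 3.70 for tyrosine, 3.68 for alanine, 3.68 for leucine, 3.61 for methionine and 2.09 for aspartate.

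In Ribo-seq the order of these pairs changed. Footprints on the cytosolic enzyme were the more abundant for 13 of 14 amino acids at no HS, with the interval above 1 for 12. Aspartate was the exception, with AspRS at 0.65 times AspRS-m (0.461 to 0.924), so the mitochondrial aspartate enzyme had more footprints than the cytosolic one. The interval of that ratio lay below 1 at all time points except 0.5 h AHS, where the ratio was 0.78, and the ratio was lowest at 9 h AHS (0.33). Valine had the largest footprint ratio, 20.4 (12.8 to 32.4), followed by arginine with 12.7. The ratio was higher in Ribo-seq than in RNA-seq for 10 of the 14 pairs, for example alanine (8.19 against 3.68), cysteine (8.99 against 4.18), serine (9.35 against 4.98), asparagine (8.86 against 4.80) and methionine (6.01 against 3.61), and only slightly for isoleucine (7.18 against 6.51), leucine (4.56 against 3.68) and tryptophan (1.31 against 1.07). Aspartate, glutamate (8.35 against 15.4), proline (5.61 against 10.2) and tyrosine (2.05 against 3.70) went the other way. The Ribo-seq ratio divided by the RNA-seq ratio had its 95% interval above 1 for 5 of the 14 pairs and below 1 for 2. For serine this quotient was 1.88 (0.748 to 4.72) and for methionine 1.67 (0.991 to 2.80), so neither was separated from 1. The intervals of glutamate and proline were wide, since ProRS-m and GluRS-m had bounds reaching 0 in 1 of the assays.

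**Figure D2:**
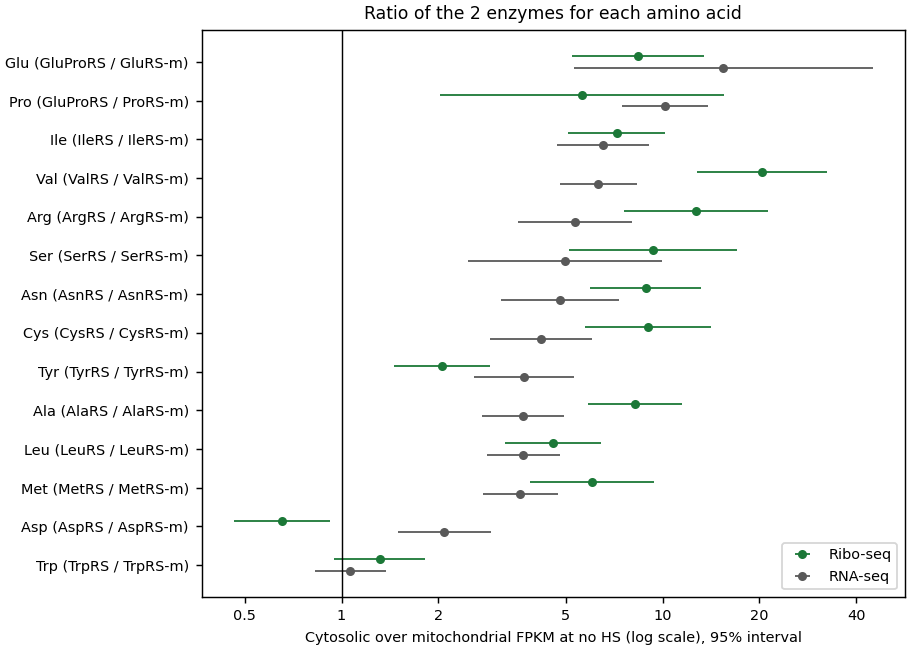
Ratio of cytosolic over mitochondrial FPKM for each of the 14 amino acids with both genes, at no HS, on a log axis with 95% intervals, in Ribo-seq and RNA-seq. RNA-seq ratios run between 1.07 for tryptophan and 15.4 for glutamate. Aspartate at 0.65 is the single ratio below 1, in Ribo-seq.

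Translation efficiency (TE) is the footprint FPKM divided by the RNA FPKM of a gene, a scale on which only comparisons between genes or times have a meaning. At no HS the median TE was 1.45 for cytosolic members and 0.896 for mitochondrial members. For 6133 other genes above 10 FPKM in RNA-seq at no HS the median was 1.31, with quartiles at 0.758 and 2.24. The members were not filtered in this way, and GluRS-m, ProRS-m, ValRS-m and MetRS-m were below 10 FPKM. Of the cytosolic members 12 of 18 lay above that median of other genes, with the 95% interval above it for AsnRS, SerRS, ValRS and GlnRS and below it for AspRS and IleRS. Of the mitochondrial members 10 of 15 lay below it, with the interval below it for 7 (ArgRS-m, ValRS-m, AlaRS-m, CysRS-m, AspRS-m, IleRS-m and PheRS-m) and above it for TyrRS-m. AsnRS had the highest TE at no HS, 3.04 (2.29 to 4.04), with SerRS at 2.94 (2.21 to 3.92), and over all time points AsnRS ran between 2.48 and 3.04. GlnRS (1.92), ValRS (1.95), GlyRS (1.71) and ThrRS (1.71) were also in the upper part. IleRS, which had the most abundant mRNA, had a TE of 0.902.

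AspRS was the outlying cytosolic member in TE, at 0.247 (0.169 to 0.360) for no HS, and 2.74% of the other genes had a lower value. Its TE was 0.247, 0.272, 0.197, 0.176, 0.226, 0.243 and 0.214 from no HS to 38 h AHS, so the low value held at each time point. Its mRNA is not scarce (94.2 FPKM at no HS) and its footprints are. The gene, at chr2R:12877004-12883168 on the plus strand, overlaps exons of Nmda1 on the other strand and of asRNA:CR43468 on its own strand, and the RNA-seq table reports it in a locus shared with these genes and with Lfg and asRNA:CR45141. Nmda1 had 122 FPKM in RNA-seq at no HS and asRNA:CR43468 2.30 FPKM. The library kit marks strand, but the strand setting used in counting is not given in the sources used here, so a share of the AspRS RNA value that belongs to an overlapping gene cannot be told apart. In Ribo-seq AspRS is not reported in a shared locus.

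The lowest mitochondrial TE values were those of ArgRS-m, 0.517 (0.286 to 0.936), ValRS-m, 0.604 (0.382 to 0.957), and AlaRS-m, 0.630 (0.446 to 0.889). TyrRS-m was the opposite, at 2.17 (1.45 to 3.25). ProRS-m (1.94) and GluRS-m (1.98) had similar point values but intervals of 0.700 to 5.39 and 0.638 to 6.14. Overlap with another gene was more frequent in this group, as 11 of 15 mitochondrial members are reported in a shared RNA-seq locus, against 6 of 18 cytosolic members. Among these are ArgRS-m with mRpS9 and wtrw, and ProRS-m with CG1246. In Ribo-seq only MetRS-m and SerRS-m share one. What part of the difference in TE between the compartments comes from shared loci was not tested.

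**Figure D3:**
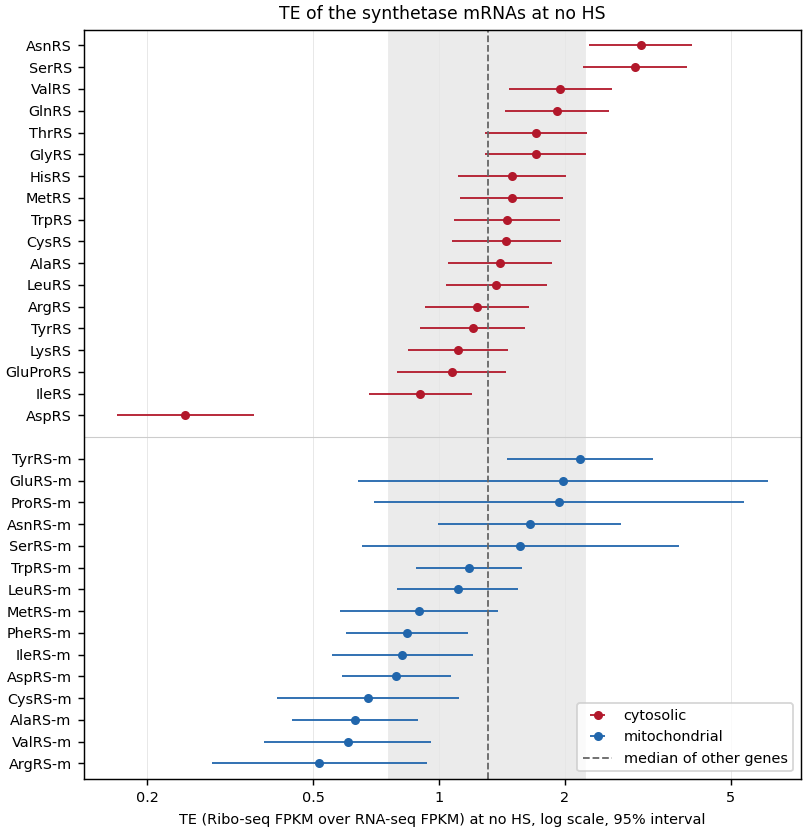
TE of each synthetase at no HS on a log axis with 95% intervals, cytosolic members above and mitochondrial members below, each in falling order. The grey band spans the quartiles of 6133 other genes above 10 FPKM in RNA-seq (0.758 to 2.24) and the dashed line their median of 1.31. AspRS at 0.247 lies far to the left of the other members, and AsnRS at 3.04 and SerRS at 2.94 lie to the right of the band.

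RNA-seq gave no call for a synthetase. None of the 33 members was called against no HS at 0.5, 5, 9, 18, 28 or 38 h AHS, where 7.89, 1.89, 2.81, 1.84, 2.41 and 2.78% of all tested genes were called in either direction. All 18 cytosolic members were tested at each time point, and 11 or 12 of the 15 mitochondrial ones. Among the 15 pairs of the 6 time points other than 0.5 h AHS, 0 of 18 cytosolic and 0 of 12 tested mitochondrial members were called, beside 10.7% of all genes. The ratio of the highest to the lowest of the 6 values had a median of 1.14 over cytosolic and 1.20 over mitochondrial members, and 1.25 over other genes. At a background of a few percent a count of 0 in a group this small says little about the members, so their own values are given. Over the 6 comparisons with no HS together, 12.4% of all genes were called at least once.

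MetRS, which charges both initiator and elongator methionine tRNAs, had the most positive RNA change at 9 h AHS, with 35.0, 35.0, 43.9, 48.2, 41.4, 38.4 and 35.8 RNA-seq FPKM from no HS to 38 h AHS, a log2 change of 0.46 (SE 0.20) at 9 h. AlaRS, for alanine, was the next most positive with 78.2, 82.0, 90.5, 102, 87.7, 80.5 and 81.6 FPKM, a log2 change of 0.39 (SE 0.20). Both had their highest value at 9 h AHS and were back near no HS at 38 h AHS, but their bounds at 9 h overlapped those at no HS. GluProRS and AspRS-m had their highest values at 9 h AHS as well, 76.9 FPKM against 68.3 at no HS for GluProRS and 58.3 FPKM against 45.1 at no HS for AspRS-m. At 9 h AHS 16 of 18 cytosolic and 10 of 15 mitochondrial members lay above no HS, with median log2 changes of 0.12 and 0.12, beside 0.06 for other genes, of which 61.4% lay above.

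Late in the series AsnRS and HisRS moved upwards in RNA-seq. AsnRS had 48.4, 39.8, 49.7, 56.1, 55.2, 57.3 and 60.0 FPKM, a log2 change of 0.31 (SE 0.19) at 38 h AHS. HisRS, for histidine, had 65.2, 63.9, 64.0, 68.1, 74.7, 85.2 and 78.5 FPKM, a log2 change of 0.27 (SE 0.22) at 38 h AHS. Neither change was called, and both lay within overlapping bounds. IleRS-m had the most negative RNA change at 38 h AHS, with 15.6, 15.8, 15.5, 15.2, 14.9, 14.9 and 13.6 FPKM and a log2 change of -0.20, within its bounds.

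The bounds separated time points for 2 mitochondrial mRNAs, neither of which reached the fold threshold against no HS or in the 15 pairs, where 12% of all genes had bounds apart in some pair. TrpRS-m, at chr3L:17849727-17852453 with no overlapping gene, had 29.9, 26.9, 19.6, 22.1, 24.1, 26.2 and 26.9 RNA-seq FPKM, lowest at 5 h AHS with a log2 change of -0.61 (SE 0.19), and 2.03% of all genes had bounds apart from no HS at that time. PheRS-m, the single-chain phenylalanine enzyme of mitochondria, had 26.1, 16.5, 26.1, 22.8, 29.1, 34.0 and 29.7 FPKM, with a log2 change of -0.66 (SE 0.19) and bounds apart at 0.5 h AHS, as 8.66% of all genes had. Its value at 28 h AHS lay above that at 9 h AHS with bounds apart, and it was 2.06 times the value at 0.5 h AHS, a pair that was not among those compared. The TrpRS-m low and the PheRS-m low thus fell at different time points. Muscle markers were also lower at 5 h AHS, 3 of 7 called lower in RNA-seq (bt, sls and Mlc2), and their part in the TrpRS-m value was not tested.

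Ribosome footprints gave calls for TrpRS-m, ProRS-m and ArgRS-m. Against no HS, 0 of 18 cytosolic members were called at any of the 6 time points. Of the 15 mitochondrial members 14 were tested and 3 (21.4% of those tested) were called at some time point, TrpRS-m lower and ProRS-m and ArgRS-m higher. Of all genes 33.3% were called at some time point, so both compartments lay below that share. In time order, 18.1, 9.3, 13.7, 5.69, 7.74 and 8.96% of all tested genes were called in either direction. By time point the calls were TrpRS-m at 5 h AHS, where 6.47% of all genes were called lower, ProRS-m at 9 and 18 h AHS, where 4.74 and 2.36% were called higher, and ProRS-m and ArgRS-m at 28 h AHS, where 2.86% were called higher. Between 10 and 11 mitochondrial members were tested at each time point, so 1 or 2 calls among them are no more than a small count.

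TrpRS-m was the one call with bounds apart. Its Ribo-seq FPKM was 35.3, 29.6, 20.4, 25.8, 31.9, 25.1 and 29.0 from no HS to 38 h AHS, and at 5 h AHS it had fallen by 0.79 on the log2 scale (SE 0.26), with bounds of 14.9 to 26.0 FPKM at 5 h against 27.0 to 43.7 FPKM at no HS, a separation seen for 4.03% of all genes. Footprints and mRNA of TrpRS-m were both lowest at 5 h AHS, and its TE was 1.04 at 5 h, against 1.18 at no HS. The cytosolic TrpRS had 41.3 Ribo-seq FPKM at 5 h AHS against 46.4 FPKM at no HS, within its bounds. The Ribo-seq ratio of TrpRS to TrpRS-m was thus 2.02 (1.42 to 2.88) at 5 h AHS, against 1.31 (0.947 to 1.82) at no HS. In RNA-seq the ratio was 1.35 at 5 h AHS, against 1.07 at no HS.

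ProRS-m had 13.0, 16.9, 11.3, 28.0, 24.1, 25.9 and 9.74 Ribo-seq FPKM, high at 9, 18 and 28 h AHS and low on either side. The log2 changes were 1.10 (SE 0.88) at 9 h, then 0.89 (SE 1.15) at 18 h and finally 0.99 (SE 0.89) at 28 h AHS, past the fold threshold but about the size of their errors. The bounds were wide at each time point, 0 to 26.2 FPKM at no HS and 8.74 to 47.2 FPKM at 9 h AHS, and overlapped. Its mRNA was between 5.68 and 7.86 FPKM throughout. Of the 15 pairs of time points 9 were called for ProRS-m in Ribo-seq, the widest being 9.74 FPKM at 38 h AHS against 28.0 FPKM at 9 h AHS, 2.87-fold apart, the largest ratio of any member.

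ArgRS-m, at chr3R:7887045-7890150, had 5.92, 5.84, 9.23, 9.72, 7.65, 10.4 and 9.30 Ribo-seq FPKM, with its 2 lowest values at no HS and 0.5 h AHS. The call at 28 h AHS, a log2 change of 0.81 (SE 0.43), was the time at which it crossed 10 FPKM, and the change of 0.71 (SE 0.44) at 9 h AHS missed the call because both values were under 10 FPKM. Bounds overlapped in both comparisons. The mRNA was 11.5, 10.9, 11.9, 12.1, 12.4, 12.1 and 12.2 FPKM at the same time points, so RNA-seq showed no comparable difference. The overlapping mRpS9 encodes a mitochondrial ribosomal protein.

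**Figure D4:**
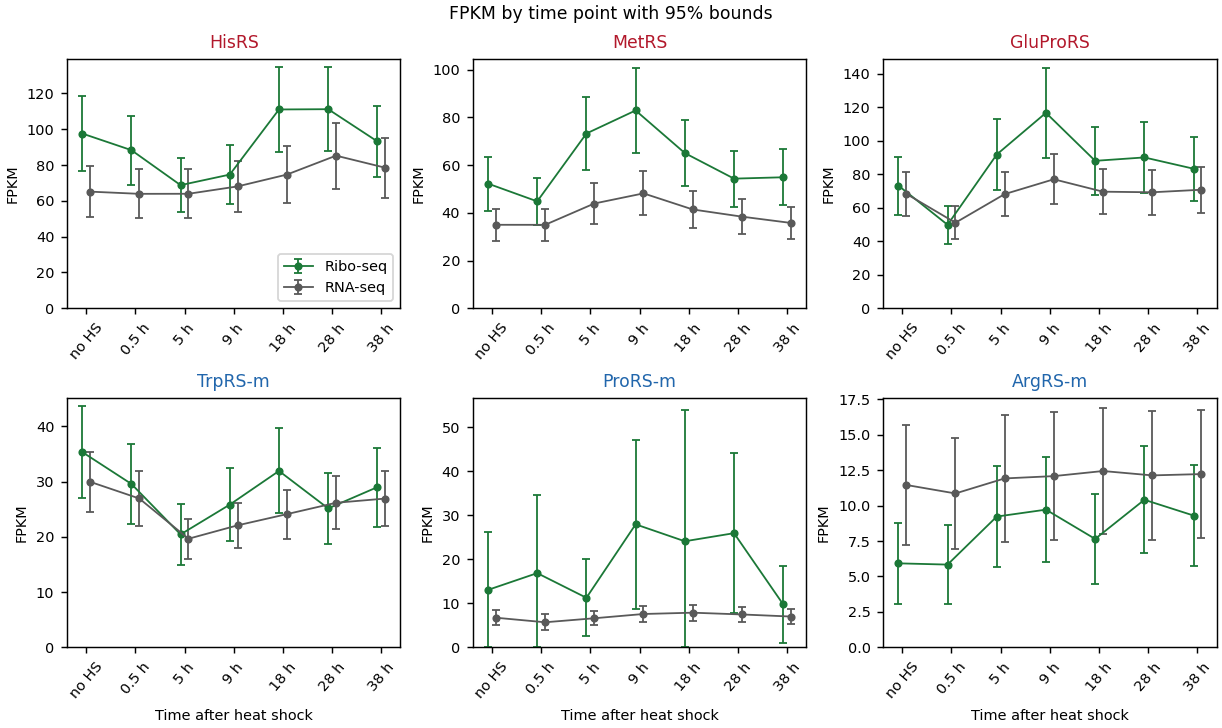
FPKM with 95% bounds at no HS and 6 times after heat shock for HisRS, MetRS and GluProRS (cytosolic, top) and TrpRS-m, ProRS-m and ArgRS-m (mitochondrial, bottom), Ribo-seq in green and RNA-seq in grey. The footprints of MetRS and GluProRS are highest at 9 h AHS, those of TrpRS-m lowest at 5 h AHS, and the bounds of ProRS-m in Ribo-seq reach 0 at no HS.

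Cytosolic footprints moved without reaching the threshold against no HS, and the nearest misses were at 9 h AHS. GluProRS, the bifunctional enzyme for glutamate and proline, had 73.2, 49.8, 91.7, 117, 87.9, 90.0 and 83.2 Ribo-seq FPKM, 1.59-fold at 9 h AHS (log2 change 0.67, SE 0.24), with bounds that overlapped by less than 1 FPKM (89.8 to 143 FPKM at 9 h against 55.9 to 90.5 FPKM at no HS). MetRS had 52.3, 44.8, 73.3, 83.0, 65.1, 54.4 and 54.9 FPKM, also 1.59-fold at 9 h AHS (log2 change 0.67, SE 0.22), with bounds apart as for 7.09% of all genes. MetRS was highest at 9 h AHS in RNA-seq and in Ribo-seq alike. AspRS had the most negative cytosolic footprint change at 9 h AHS, -0.43 (SE 0.29), with overlapping bounds, and the TE of AspRS was then at its lowest.

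HisRS was the single cytosolic member called in any pair of the 6 time points other than 0.5 h AHS, where 38.3% of all genes were called in some pair. Its Ribo-seq FPKM was 97.6, 88.3, 68.8, 74.7, 111, 111 and 93.2, and 28 h AHS was 1.62-fold above 5 h AHS, with bounds of 87.6 to 135 FPKM at 28 h against 53.5 to 84.0 FPKM at 5 h. HisRS footprints were thus low at 5 and 9 h AHS, when those of MetRS and GluProRS were high. The HisRS gene, at chrX:18515428-18520445, is reported in an RNA-seq locus with 5 other genes and shares exon sequence with Bx on its own strand. Among mitochondrial members 5 of 13 tested were called in some pair, ArgRS-m, GluRS-m, MetRS-m, ProRS-m and TrpRS-m, 38.5% of those tested against the 38.3% of all genes. GluRS-m had 8.76, 6.29, 8.75, 11.7, 8.72, 9.79 and 6.99 FPKM and was called lower at 38 than at 9 h AHS, and MetRS-m had 8.70, 5.77, 7.99, 7.28, 12.5, 9.51 and 8.42 FPKM and was called higher at 18 than at 9 h AHS. Both crossed 10 FPKM at 1 time point only, and the bounds overlapped.

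Bounds were apart in some pair for HisRS, MetRS and TrpRS-m in Ribo-seq, 3 of the 31 tested members, where 21.6% of all genes had bounds apart. The ratio of the highest to the lowest of the 6 footprint values had a median of 1.27 over cytosolic members, 1.49 over mitochondrial members and 1.50 over other genes. The median over cytosolic members was below that of other genes in both assays, which was not tested. Exceptions were AlaRS, HisRS and MetRS in RNA-seq and GluProRS, HisRS and MetRS in Ribo-seq, whose ratios lay above the median of other genes.

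At 38 h AHS, the largest footprint changes from no HS were mitochondrial. ArgRS-m had a log2 change of 0.65 and PheRS-m of 0.49 (21.9, 18.4, 23.7, 26.6, 24.0, 32.4 and 30.7 Ribo-seq FPKM from no HS to 38 h AHS), and ProRS-m (-0.42) and ValRS-m (-0.37) were at the other end. PheRS-m and ProRS-m were not called. ArgRS-m and ValRS-m were under 10 FPKM at both time points, so they were not tested. The cytosolic changes at 38 h AHS ran between -0.28 and 0.26.

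**Figure D5:**
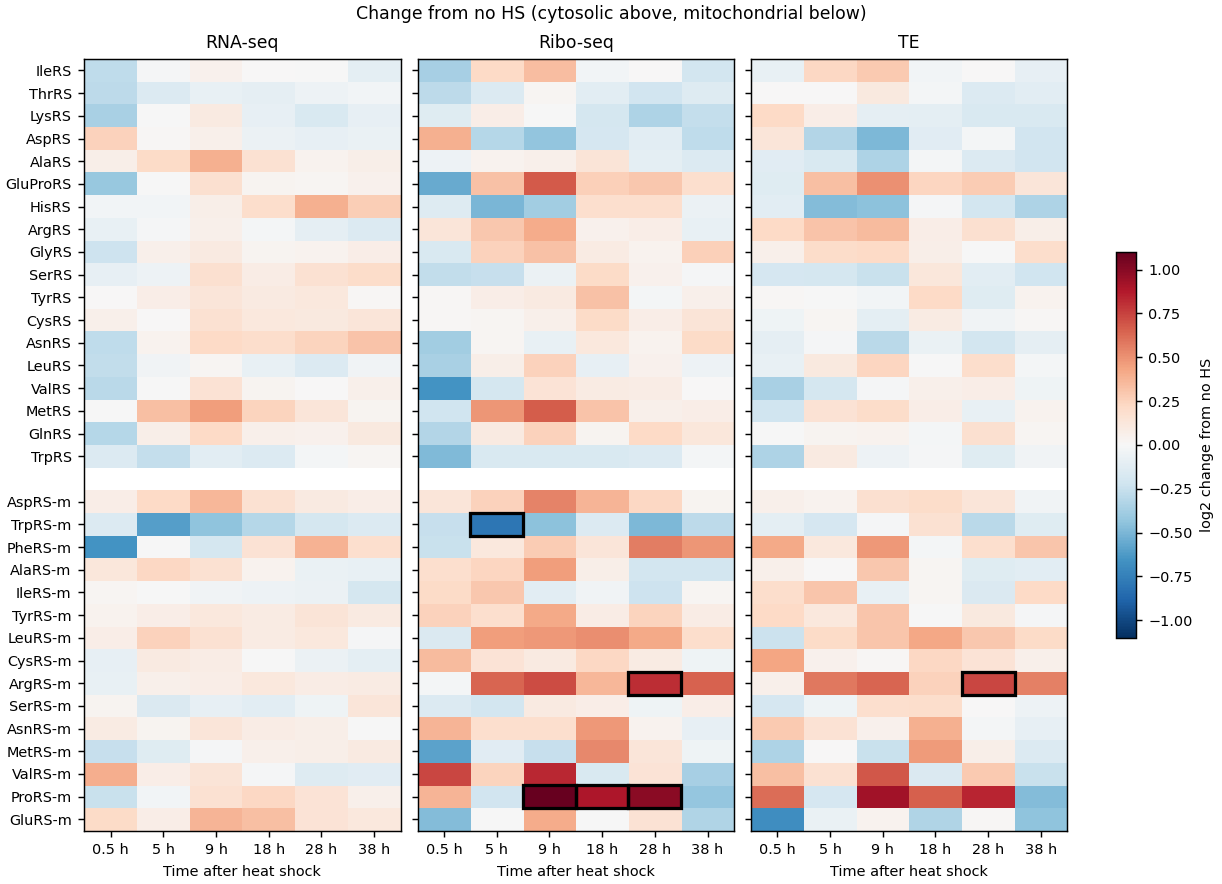
Log2 change from no HS at 0.5 to 38 h AHS in RNA-seq, Ribo-seq and TE for each synthetase, cytosolic rows above mitochondrial rows, red for higher and blue for lower. Black frames mark calls, which are TrpRS-m at 5 h, ProRS-m at 9, 18 and 28 h and ArgRS-m at 28 h AHS in Ribo-seq and ArgRS-m at 28 h AHS in TE, and no gene in RNA-seq.

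As groups, the compartments parted most at 0.5 h AHS in RNA-seq and in Ribo-seq, right after the heat shock, though not in TE. The median RNA log2 change was -0.19 over cytosolic members, of which 14 of 18 lay below no HS, and 0.03 over mitochondrial members, beside 0.01 over other genes, of which 48.2% lay below. In Ribo-seq the medians were -0.25 (14 of 18 below), 0.13 and 0.06. The cytosolic medians stayed below 0 after rescaling all time points to a common median or a common sum of FPKM, between -0.22 and -0.33. Members of the multi-synthetase complex had an RNA median of -0.27 (7 of 8 below 0) and the other cytosolic members -0.12 (7 of 10 below 0). GluProRS had the most negative cytosolic RNA change, -0.42 (SE 0.20), and ValRS, with 85.5, 54.3, 74.7, 94.7, 90.8, 90.4 and 85.7 Ribo-seq FPKM, the most negative footprint change, -0.65 (SE 0.22), with bounds apart, as 10.2% of all genes had, but under the fold threshold. AspRS was an exception in both assays, at 0.25 (SE 0.29) in RNA-seq and 0.39 (SE 0.27) in Ribo-seq. Its overlapping neighbour Nmda1 had 266 RNA-seq FPKM at 0.5 h AHS, against 122 FPKM at no HS. Markers of the ovarian cell types moved at this time too. All 6 germline markers lay below no HS in both assays, with median log2 changes of -0.24 in RNA-seq and -0.28 in Ribo-seq, and nos was called lower in Ribo-seq. All 7 muscle markers lay below no HS in RNA-seq, with a median of -0.54, and 2 of 7 did in Ribo-seq. Of the follicle and escort cell markers 6 of 7 lay below no HS in each assay, and in Ribo-seq 3 of 5 tested were called lower (tj, zfh1 and Wnt4) and cas higher. The part of these cell types in the synthetase values was not tested.

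At 9 h AHS it was the mitochondrial group that stood apart in Ribo-seq, with a median log2 change of 0.41. Of its 15 members 12 lay above no HS, and 11 of the 15 were tested. The median was 0.08 over cytosolic members and -0.01 over other genes, of which 49.2% lay above no HS. The mitochondrial median was 0.40 and 0.74 under the 2 rescalings, whereas the cytosolic one was 0.07 and 0.41. Rescaling to the same sum moved the median of all genes at 9 h AHS to 0.32, so the size of these medians depends on the scaling and their order does not. The most positive changes were of ProRS-m and ValRS-m (0.83), both with few footprints, and the most negative was of TrpRS-m (-0.45, SE 0.25). AspRS-m, the best covered mitochondrial member, had a log2 change of 0.55 (SE 0.22). At the same time 28 of 89 cytosolic ribosomal protein genes were called lower in Ribo-seq, with a median of -0.47, and 2 higher and 1 lower of 72 mitochondrial ribosomal protein genes, with a median of 0.06. Of 42 tested eIF and eEF translation factors, 4 were called lower and 0 higher. Of all genes 8.96% were called lower at this time and 4.74% higher. In Ribo-seq muscle markers had 3 of 5 called lower and Mhc called higher at 9 h AHS. Of the 6 germline markers 2 were called lower in Ribo-seq (nos and ovo) and 2 in RNA-seq (nos and bgcn). Below no HS lay 3 of the 6 in Ribo-seq and 5 in RNA-seq. The marker vas had 199 RNA-seq FPKM against 205 at no HS, and 399 Ribo-seq FPKM against 391. Of 6 tested follicle and escort cell markers 0 were called in Ribo-seq. The part of these cell types was not tested.

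In TE, the single call among the 33 members against no HS was ArgRS-m at 28 h AHS, with a log2 change of 0.73 (SE 0.58), where 0.994% of all genes were called higher and 6.56% in either direction. At 0.5, 5, 9, 18 and 38 h AHS 0 members were called, and 6.21, 5.04, 11.1, 3.85 and 7.4% of all genes were. Over the 6 time points together 22.7% of all genes were called at least once, against 0 of 18 cytosolic and 1 of 12 tested mitochondrial members. The TE of ArgRS-m was 0.517, 0.537, 0.774, 0.804, 0.615, 0.858 and 0.761 from no HS to 38 h AHS. GluProRS had the most positive cytosolic TE change at 9 h AHS, 0.50, and AspRS the most negative, -0.49, both uncalled. ProRS-m had a TE change of 0.93 at 9 h AHS but an mRNA under 10 FPKM, so it was not tested.

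The proteins that work with the synthetases gave no call in RNA-seq or Ribo-seq. Of 9 partner genes (alpha-PheRS, beta-PheRS, AIMP1, AIMP2, AIMP3, Slimp, GatA, GatB and GatC) 0 were called against no HS at any time point in either assay, beside 12.4% of all genes in RNA-seq and 33.3% in Ribo-seq. The cytosolic phenylalanine enzyme is a tetramer of both subunits, and alpha-PheRS had 37.0, 25.9, 34.3, 39.8, 39.0, 38.6 and 38.3 RNA-seq FPKM and beta-PheRS 28.2, 25.0, 33.3, 36.1, 32.2, 33.0 and 33.4 FPKM. In Ribo-seq alpha-PheRS had 78.7, 56.2, 76.8, 81.5, 90.9, 88.9 and 94.5 FPKM and beta-PheRS 73.1, 61.5, 74.7, 71.5, 87.4, 70.7 and 73.3 FPKM. Both subunits were lowest at 0.5 h AHS in each assay. TE calls were made for AIMP1, a scaffold of the complex, at 9 h AHS (-0.95, SE 0.32), and for GatC at 5 h (-0.76, SE 0.48) and 28 h AHS (-0.69, SE 0.48). AIMP1 had 51.3 Ribo-seq FPKM at 9 h AHS, against 78.8 FPKM at no HS, while its mRNA was 24.7 FPKM at 9 h against 19.7 FPKM at no HS.

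Uncharged tRNA and other stresses act through the kinases Gcn2 and PEK on eIF2 and raise translation of crc, the fly ATF4, which in turn regulates amino acid enzymes. Of 12 genes listed for this response 11 were found in both tables. The crc gene itself was not called at 0.5 h AHS, with 45.0 Ribo-seq FPKM at 0.5 h against 61.1 at no HS, 318 against 315 RNA-seq FPKM, and a TE of 0.141 against 0.194 (log2 change -0.45, SE 0.34). Gcn2 had log2 changes of 0.43 (SE 0.30) in RNA-seq and 0.49 (SE 0.26) in Ribo-seq at that time, also uncalled. At 0.5 h AHS PEK was called higher in both assays, with log2 changes of 1.05 (SE 0.20) in RNA-seq and 1.66 (SE 0.25) in Ribo-seq, and PPP1R15, the eIF2 phosphatase subunit, was called higher in Ribo-seq, 0.79 (SE 0.30). CG6287, a serine synthesis enzyme, fell by 1.02 in RNA-seq and 1.07 in Ribo-seq on the log2 scale at 0.5 h AHS, and by 0.76 in Ribo-seq at 9 h AHS. Eip55E, an enzyme of cysteine synthesis, was called lower in Ribo-seq at 0.5 h (-0.91, SE 0.25) and 9 h AHS (-1.03, SE 0.25). In TE, CG6287 (-1.18, SE 0.30) and Eip55E (-1.19, SE 0.31) were called lower at 9 h AHS, and aay, a serine synthesis phosphatase, was called higher at 18 h AHS (0.72, SE 0.48). At 0.5 h AHS the calls were 2 of 11 genes in RNA-seq and 4 of 11 in Ribo-seq, beside 7.89 and 18.1% of all genes. At 9 h AHS they were 2 of 10 tested in Ribo-seq and 2 of 11 in TE, beside 13.7 and 11.1%. The aay call in TE was 1 of 11, beside 3.85% of all genes at 18 h AHS. From 5 h AHS onwards no gene of the list was called in RNA-seq, where 1.84 to 2.81% of all genes were called at each time point.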

How the data were processed

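Ovary RNA-seq and Ribo-seq were available as 1 table each, with 17783 and 13968 genes. Per the submitters' processing notes and the study's methods, the authors trimmed adapters, discarded reads matching non-coding RNA with Bowtie (Ribo-seq, after removing redundant reads) or Bowtie2 (RNA-seq), mapped the rest to dm6 with STAR and ran Cuffdiff 2.2.1, and deposited 1 FPKM for each gene and time point, pooled over 2 replicates, with bounds 2 SE either side, floored at 0. Read depth cannot be read from FPKM values, the library normalization and strand setting of Cuffdiff are not given in the sources used here, and 0 per-sample columns were left unmapped. The members, gene lists and tests were chosen with earlier results of these data known.

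From these values Python 3.11.15, numpy 2.4.6, pandas 2.3.3 and matplotlib 3.10.9 were used to compute fold changes, TE (Ribo-seq over RNA-seq FPKM), delta-method SE and 95% intervals (1.96 SE). Genes of both tables above 10 FPKM in a compared time point formed the background, and calls needed more than 1.6-fold. Columns of the authors' own comparisons were not used. The calling rule was run on simulated data in which 200 genes per assay were changed 3-fold, with noise smaller than the bounds. Such changes lie far past the threshold, so the run checks only the coding of the rule and not calls near 1.6-fold.

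Every member is named. Values at all time points are given for members called in an assay, the 2 highest and 2 lowest at no HS of each compartment, the 2 largest and 2 smallest changes at 9 and 38 h AHS, and list genes when called or when a subunit. Sequences and positions came from the RefSeq genome and the Ensembl annotation of BDGP6. Alternatives were another fold threshold and FPKM minimum, a pseudocount of 1 FPKM, rescaling, calls by bounds, other member sets and, chosen after seeing the data, time points or genes left out.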

Additional observations from a re-analysis of the deposited data

How the results depend on the processing

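Of the counts and level ratios recomputed under the alternatives, 87 stayed within 1.5 times the value given and 32 moved, and none reversed. With a 2-fold threshold, cytosolic members called in any pair in Ribo-seq numbered 0, mitochondrial members 1 in any pair and 1 against no HS (ProRS-m), and mitochondrial members in TE 0. With a minimum of 20 FPKM, mitochondrial calls were 2 in any Ribo-seq pair and 0 in TE, and with no minimum TE calls were 4. A pseudocount of 1 FPKM left 0 TE calls. Rescaling to the same median gave 1 mitochondrial call against no HS in RNA-seq (PheRS-m at 0.5 h AHS) and 1 cytosolic call in Ribo-seq (ValRS). Rescaling to the same sum gave 1 in RNA-seq (PheRS-m), 4 cytosolic and 8 mitochondrial members against no HS in Ribo-seq, 9 and 9 in any pair, and 2 and 3 in TE, because it raises Ribo-seq values at 5, 9 and 28 h AHS for all genes alike (42.3% of all genes were then called against no HS). Bounds apart besides the thresholds left 1 mitochondrial member (TrpRS-m) in any Ribo-seq pair and 1 against no HS, and 0 in TE. Bounds apart alone gave 2 in RNA-seq (PheRS-m and TrpRS-m) in any pair and 2 against no HS, 2 cytosolic (HisRS and MetRS) and 1 mitochondrial in any Ribo-seq pair, 2 (MetRS and ValRS) and 1 against no HS, and 0 in TE. Chosen after seeing the data, leaving out 5 h AHS removed the HisRS call (0 cytosolic members), and leaving out no HS or 9 h AHS left 3 mitochondrial members in any pair each. With only members above 10 FPKM the ratio of compartment medians at no HS was 4.10 in RNA-seq and 4.84 in Ribo-seq. No paired analysis was possible because the tables hold 1 pooled value per time point, and leaving out single replicates could not be run for the same reason. Mitochondrial members near 10 FPKM are limited by the width of their bounds.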
